A study of Homo sapiens with 6 samples.

Results

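BLK, BLNK, CD72, CIITA and ETS1 are 5 genes of B cell receptor signalling and B cell identity. They were chosen by gene symbol from a deposited table of 1877 genes, and each symbol matched 1 row. The table came from RNA of the human myeloma cell line LP-1, in which RNF5, a ubiquitin ligase gene, was depleted with a short hairpin RNA (RNF5 KD, 3 libraries) or which received the control (Ctrl, 3 libraries; a non-target control per the series design). All 6 libraries came from the same line, and the labels give neither a harvest time nor the number of hairpins. Nothing states that they were separate cultures, so every p-value here measures the spread between these libraries, which may be technical.

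A B cell senses antigen through its surface receptor. SRC family kinases, BLK among them, phosphorylate the receptor's signalling chains, and the adaptor BLNK then brings together the enzymes that release calcium, while CD72 is a surface receptor that recruits a phosphatase and dampens the signal. CIITA is the coactivator that switches on the genes of MHC class II, and ETS1 is a transcription factor that, in mice, restrains the passage of B cells to plasma cells. Myeloma is a tumour of plasma cells, which normally silence CIITA and much of the B cell receptor apparatus.

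Values are a normalized abundance on a scale that no label or header names, so levels are compared between groups and not between genes. The authors had selected the 1877 genes as changed on these same libraries, which makes neither a call nor a p-value below independent evidence of a change. Genes entered the test if at least 3 libraries reached a value of 1. Of the 1290 that did, limma called 97.7% changed (Benjamini-Hochberg adjusted p under 0.05) (55.7% higher and 42.0% lower in RNF5 KD). The 5 genes passed this filter, BLNK through its Ctrl libraries alone, and were called, 3 higher and 2 lower, a share close to that background. In all 5 the values of both groups did not overlap, as in 93.2% of the 1877 listed genes (47.7% with RNF5 KD higher and 45.5% with it lower). RNF5 itself stood at 81.35 to 95.40 in RNF5 KD and 1248 to 1649 in Ctrl. The listed values summed to 116843 to 122079 in RNF5 KD libraries and to 90825 to 93975 in Ctrl libraries, and the depth behind them is unknown. SDC1, the plasma cell antigen CD138, had values in all libraries, while CD38, TNFRSF17, SLAMF7, XBP1, IRF4, PRDM1, JCHAIN and MZB1, also markers of plasma cells, and the B cell markers MS4A1, PAX5, CD79A, CD79B and CD22 were not among the listed genes.

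**Figure D1:**
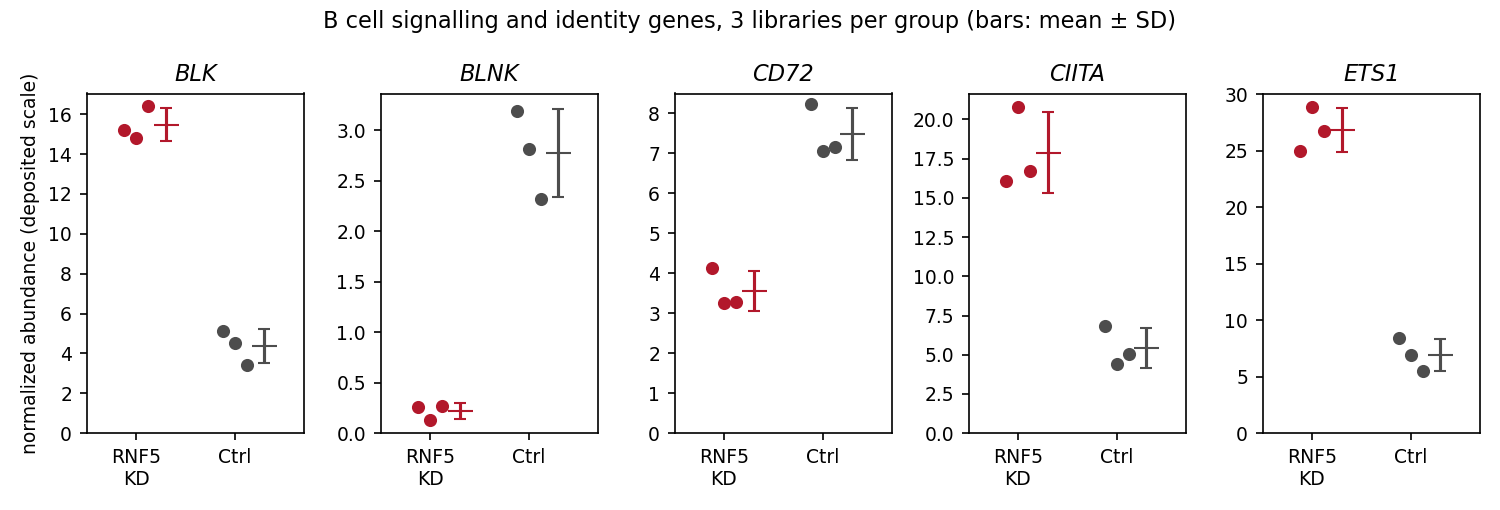
Normalized abundance of the 5 genes in each library (points, linear axis from 0), with the mean ± SD of 3 libraries beside them, RNF5 KD at left and Ctrl at right in each panel. The groups are separate in every panel, with BLK, CIITA and ETS1 higher and BLNK and CD72 lower in RNF5 KD.

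Among the receptor-proximal genes, the kinase and the adaptor moved in opposite directions. BLK (ENSG00000136573, chromosome 8), the SRC family kinase of B cells, had 15.21, 14.81 and 16.39 in the RNF5 KD libraries, against 5.12, 4.54 and 3.44 in the Ctrl libraries. Every RNF5 KD value was at least 2.89 times the highest Ctrl value. The mean was 15.5 ± 0.821 in RNF5 KD and 4.37 ± 0.853 in Ctrl (SD, n = 3 each), a ratio of 3.54. On the log2(value + 1) scale used for all tests, which understates the change of low genes, BLK rose by 1.63 (SE 0.19, 95% interval 1.21 to 2.05, limma adjusted p = 2.33e-05).

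BLNK (ENSG00000095585, chromosome 10), the adaptor that links the kinase SYK to phospholipase C, had 0.26, 0.13 and 0.27 in RNF5 KD libraries, against 3.19, 2.81 and 2.32 in Ctrl libraries. The gene was near the floor of the scale in each RNF5 KD library and low but above it in each Ctrl library. Its mean was 0.220 ± 0.0781 in RNF5 KD and 2.77 ± 0.436 in Ctrl, which left 7.93% of the Ctrl level and made Ctrl 12.6 times RNF5 KD. BLNK fell by 1.62 on the log2(value + 1) scale (SE 0.14, limma adjusted p = 4.10e-06). It reached a value of 1 in the Ctrl libraries alone and so entered the test through the group where it is high, which means that it had to differ. With no filter on low values its limma adjusted p was 4.66e-05. That size depended on the pseudocount, since the log2 fold change was -2.18 with 0.5 and -3.19 with 0.1 added in place of 1. A fall in a pool of cells cannot separate fewer cells with the transcript from less of it in each cell, here and for every gene below.

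BLK and BLNK were also set against each other inside each library. With 1 added to values as low as those of BLNK, the scaling between libraries does not cancel in this difference. The difference of log2(value + 1) between BLK and BLNK was 3.69, 3.81 and 3.78 in RNF5 KD libraries and 0.55, 0.54 and 0.42 in Ctrl libraries. The mean difference was 3.76 ± 0.063 in RNF5 KD and 0.50 ± 0.072 in Ctrl, so that the gap between both genes was 3.25 wider in RNF5 KD. This is a description without a test, and such a gap shows unequal change and not how far either gene moved.

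CD72 (ENSG00000137101, chromosome 9), the inhibitory receptor, had 4.13, 3.25 and 3.27 in RNF5 KD libraries, against 8.24, 7.07 and 7.17 in Ctrl libraries. The groups were separate, with the lowest Ctrl value 1.71 times the highest RNF5 KD value, the narrowest gap among the 5 genes. The mean was 3.55 ± 0.502 in RNF5 KD and 7.49 ± 0.649 in Ctrl, or 47.4% of the Ctrl level. CD72 fell by 0.90 on the log2(value + 1) scale (SE 0.19, limma adjusted p = 0.000811). An activating kinase was thus higher while an adaptor of the same pathway and an inhibitor of it were both lower.

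The 250 bases before the start site are shown for BLNK and CD72, which both had a window in the set used. Both sequences come from RefSeq on GRCh38.p14, which is not the hg19 build named by the submitters, and no value here was read by position. BLNK lies on the minus strand with this window at chr10:96271570-96271819, and CD72 on the minus strand with its window at chr9:35618414-35618663. Both are printed 5′ to 3′ along the gene's own strand, with GGAAGT, a form of the core recognised by ETS factors, in capitals.
BLNK: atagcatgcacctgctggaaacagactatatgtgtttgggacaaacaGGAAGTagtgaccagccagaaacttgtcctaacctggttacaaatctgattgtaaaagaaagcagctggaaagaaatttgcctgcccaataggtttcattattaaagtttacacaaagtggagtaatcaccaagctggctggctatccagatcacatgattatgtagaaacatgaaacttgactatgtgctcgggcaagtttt
CD72: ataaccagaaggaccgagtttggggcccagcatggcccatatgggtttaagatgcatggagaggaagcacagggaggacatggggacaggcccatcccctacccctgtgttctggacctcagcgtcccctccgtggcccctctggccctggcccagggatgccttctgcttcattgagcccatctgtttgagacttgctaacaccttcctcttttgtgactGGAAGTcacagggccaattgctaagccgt
GGAAGT was searched on both strands and was found once in each window, starting 203 bases before the BLNK start and 29 bases before the CD72 start. Of 35116 RefSeq windows of this length, 19.5% hold it. The longer AGGAAGT, which contains it, was found in the BLNK window and in 7.01% of all windows, and the bare GGAA, which both contain, occurred 3 times in each window and in 92.7% of all windows. These matches are letters and not sites of binding. The BLNK window held 40.4% G and C and the CD72 window 57.2%, against a median of 58.0% over all windows. BLK, CIITA and ETS1 have no window shown, since CIITA and ETS1 had no entry in the set used and BLK was left out. The genes that fell are thus not compared here with those that rose.

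The transcriptional regulators both rose. CIITA (ENSG00000179583, chromosome 16) had 16.07, 20.82 and 16.71 in RNF5 KD libraries, against 6.83, 4.40 and 5.05 in Ctrl libraries. The lowest RNF5 KD value was 2.35 times the highest Ctrl value. Means were 17.9 ± 2.58 in RNF5 KD and 5.43 ± 1.26 in Ctrl, a ratio of 3.29, and CIITA rose by 1.56 on the log2(value + 1) scale (SE 0.21, limma adjusted p = 4.50e-05). With the trend of fold change over gene length removed, the rise was 1.29.

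ETS1 (ENSG00000134954, chromosome 11) had 25.02, 28.91 and 26.75 in RNF5 KD libraries, against 8.39, 6.89 and 5.48 in Ctrl libraries. Each RNF5 KD library was at least 2.98 times the highest Ctrl library, the widest gap among the 3 genes that rose. Means were 26.9 ± 1.95 in RNF5 KD and 6.92 ± 1.46 in Ctrl, a ratio of 3.89. ETS1 rose by 1.83 on the log2(value + 1) scale (SE 0.19, 95% interval 1.41 to 2.26, limma adjusted p = 1.18e-05). The exact 2-sided permutation test over libraries gave p = 0.1 for each of the 5 genes, the smallest value that 3 against 3 allow.

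**Figure D2:**
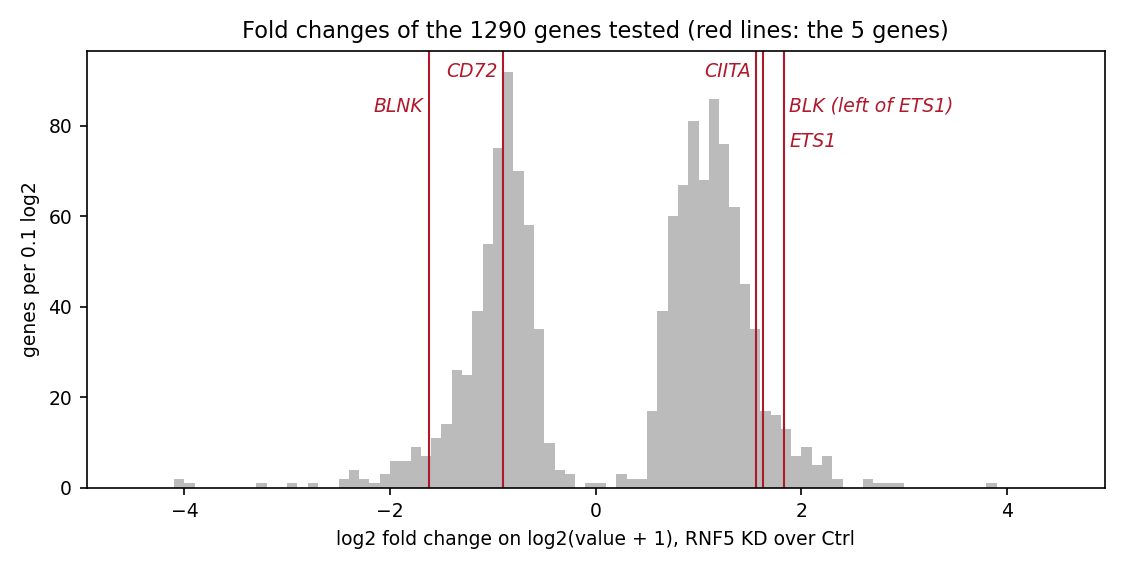
Histogram of log2 fold changes (RNF5 KD over Ctrl, log2(value + 1) scale) of the 1290 genes tested, in steps of 0.1, with the 5 genes as red lines. The authors' selection leaves a hollow around 0, with BLK, CIITA and ETS1 on the outer flank of the genes that rose, BLNK on the outer flank of those that fell and CD72 near the middle of them.

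Set among the genes that limma called in the same direction, ETS1, BLK and CIITA were on the outer side. BLNK was there too, but it entered the test through its Ctrl libraries alone and so had to differ. Ranks on the log2(value + 1) scale also understate the change of low genes such as BLNK. ETS1 ranked 47, BLK 77 and CIITA 94 by size of change among the 718 genes called higher, whose median log2 fold change was 1.13 and upper quartile 1.38. BLNK ranked 44 and CD72 ranked 289 among the 542 genes called lower, whose median was -0.93 and outer quartile -1.17. In the authors' deposited table, CIITA and ETS1 stood at places 32 and 33 of 1877 by adjusted p, BLK at 263, BLNK at 401 and CD72 at 1154. The log2 fold changes in the authors' deposited table were 1.57 for BLK, -3.45 for BLNK, -1.06 for CD72, 1.91 for CIITA and 1.81 for ETS1.

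Those deposited fold changes were not the plain ratio of the library means. In 431 genes whose group means both reached 5, the library means gave a log2 ratio above that in the authors' deposited table by a median of 0.17 (quartiles 0.11 and 0.22). BLK, BLNK and CD72 each had a group mean under 5 and so were not among those genes. ETS1 lay within those quartiles at 0.15 and BLK slightly above at 0.26. CIITA at -0.19, BLNK at -0.20 and CD72 at -0.02 lay below, so by the means of the libraries CIITA rose less than BLK, whereas in the authors' deposited table it rose more. The cause of the difference was not tested.

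Variation within a group differed between the genes. In RNF5 KD the coefficient of variation was 5.31% for BLK and 7.25% for ETS1, against 19.5% and 21.0% in Ctrl. CIITA varied by 14.4% in RNF5 KD and 23.2% in Ctrl. The median over all tested genes was 12.6% in RNF5 KD and 24.2% in Ctrl. BLNK and CD72 had the other order, with 35.5% for BLNK and 14.2% for CD72 in RNF5 KD and 15.7% and 8.66% in Ctrl. The RNF5 KD values of BLNK were near the floor of the scale. Ctrl library 1 was the highest of its group for all 5 genes. Ctrl library 3 was the lowest for BLK, BLNK and ETS1, as for 428 of the 598 tested genes with a mean of at least 5, while CD72 and CIITA were lowest in Ctrl library 2. Without Ctrl library 3 the log2 fold changes were 1.50 for BLK, -1.71 for BLNK, -0.93 for CD72, 1.53 for CIITA and 1.69 for ETS1.

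Genes that share exonic bases with these 5 limit how exactly their reads can be assigned, because the labels do not say whether counting used strand. In GENCODE 29 (GRCh38), BLK shares 65 exonic bases with the antisense gene AC022239.1 (ENSG00000269954), which was itself in the table. AC022239.1 had 42.07, 53.29 and 45.88 in RNF5 KD libraries, against 15.33, 14.68 and 10.91 in Ctrl libraries, and rose by 1.72 on the log2(value + 1) scale (limma adjusted p = 1.59e-05), close to the 1.63 of BLK. Over the shared bases, reads of BLK and of its antisense partner cannot be told apart without strand. AC133065.3 (ENSG00000280153), an unclassified transcript on the same strand as CIITA, shares 2378 exonic bases with CIITA. AC133065.3 had 3.62, 3.99 and 3.55 in RNF5 KD libraries and 1.87, 1.09 and 1.02 in Ctrl libraries. It rose by 1.04 (limma adjusted p = 0.000344), and over the shared bases its reads cannot be told apart from those of CIITA. Protein-coding genes on the opposite strand also share exonic bases, namely DEXI with CIITA (2416), TESK1 with CD72 (509) and ZNF518A with BLNK (355), and none of them was in the table. ETS1 shared exonic bases with no other annotated gene.

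**Figure D3:**
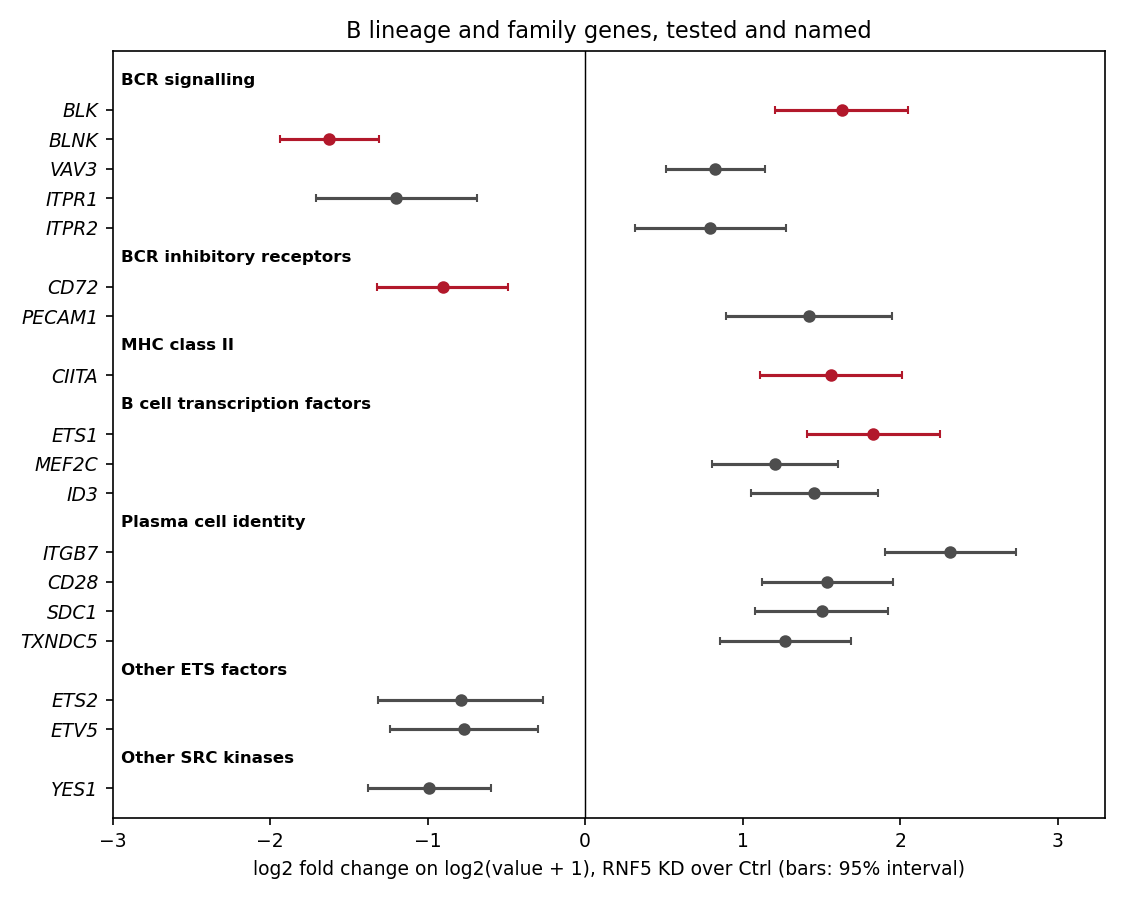
Log2 fold changes (RNF5 KD over Ctrl, log2(value + 1) scale) with 95% intervals for tested genes of the 8 B lineage and family lists that the text names. They are grouped by role, with the 5 genes in red and other listed genes in grey. Genes named from outside these lists are not drawn. Receptor signalling genes lie on both sides of 0, while the tested B cell transcription factors and plasma cell genes all lie above it.

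The rest of the pathway was read from 8 lists with 157 distinct genes, of which 23 were in the table. Of 30 genes of positive B cell receptor signalling, 6 were listed and 5 could be tested, of which 3 rose and 2 fell (median log2 fold change 0.795, against 0.73 over all 1290 genes tested). VAV3, a guanine nucleotide exchange factor, had 1.11, 1.78 and 1.38 in RNF5 KD libraries and 0.52, 0.37 and 0.20 in Ctrl libraries (log2 fold change 0.83, limma adjusted p = 0.000262). VAV3 reached a value of 1 in RNF5 KD libraries alone and BLNK in Ctrl libraries alone, so both had to differ once tested, and the count and median above support no direction. The receptors through which inositol trisphosphate releases calcium went both ways. ITPR2 had 4.19, 5.09 and 4.42 in RNF5 KD libraries and 3.28, 1.96 and 1.59 in Ctrl libraries and rose by 0.79 (limma adjusted p = 0.00422). ITPR1 had 1.28, 2.11 and 2.25 in RNF5 KD libraries and 6.85, 6.27 and 3.90 in Ctrl libraries and fell by 1.20 (limma adjusted p = 0.000500). SYK, BTK and PLCG2 were not among the listed genes.

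Of 21 inhibitory receptors and their partners, CD72 and PECAM1 were listed, and they went opposite ways. PECAM1, an adhesion molecule with inhibitory motifs, had 4.29, 5.05 and 5.90 in RNF5 KD libraries and 1.60, 1.84 and 0.55 in Ctrl libraries and rose by 1.42 (limma adjusted p = 0.000219). PTPN6, the phosphatase that CD72 recruits, was not among the listed genes. Of 21 genes of MHC class II and its regulators, CIITA was the single one listed. The HLA class II genes, CD74 and the RFX subunits that work with CIITA have no values here, so nothing can be said of their levels beside the rise of CIITA.

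Of 21 B cell transcription factors, 4 were listed, and the 3 that could be tested rose (median log2 fold change 1.45). Over all genes tested, 55.7% were called higher, and those called higher had a median of 1.13. Besides ETS1, MEF2C had 341.2, 420.4 and 370.7 in RNF5 KD libraries and 193.5, 176.6 and 125.2 in Ctrl libraries and rose by 1.21 (limma adjusted p = 0.000111). ID3, an inhibitor of E proteins, had 7.78, 7.12 and 8.52 in RNF5 KD libraries and 2.31, 2.03 and 2.29 in Ctrl libraries and rose by 1.45 (limma adjusted p = 3.55e-05). SPIB, an ETS factor of B cells, was too low to test, at 3.07, 1.54 and 0.97 in RNF5 KD libraries and 0.65, 0.10 and 0.21 in Ctrl libraries. Of 20 plasma cell genes, 4 were listed and all rose (median 1.52, against that same 1.13). TXNDC5, a disulfide isomerase of the endoplasmic reticulum, rose by 1.27 and SDC1, CD28 and ITGB7 by 1.50, 1.54 and 2.32. Each of these genes is in the table because the authors selected it from these libraries, and the counts are no independent sign of a direction.

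The relatives of ETS1 and BLK that could be tested, ETS2, ETV5 and YES1, were called lower, as were 42.0% of all genes tested. So few selected genes support no direction for either family. SPIB, the ETS factor above that was too low to test, was higher in every RNF5 KD library than in any Ctrl library. In the ETS family (27 genes, 5 listed, 3 tested) 1 rose and 2 fell. ETS2 had 7.71, 7.90 and 7.83 in RNF5 KD libraries and 16.38, 18.73 and 9.35 in Ctrl libraries and fell by 0.79 (limma adjusted p = 0.00704). ETV5 had 1.29, 2.16 and 1.74 in RNF5 KD libraries and 5.0, 3.20 and 2.90 in Ctrl libraries and fell by 0.77 (limma adjusted p = 0.00466). SPDEF, an epithelial ETS factor, was near 0 throughout and too low to test, with means of 0.0133 in RNF5 KD and 0.233 in Ctrl. Among 9 SRC family kinases 3 were listed. YES1 had 6.02, 6.53 and 6.90 in RNF5 KD libraries and 14.55, 14.15 and 12.86 in Ctrl libraries and fell by 0.99 (limma adjusted p = 0.000311). SRC was too low to test, with means of 0.130 in RNF5 KD and 0.820 in Ctrl. LYN, the other main SRC family kinase of B cells, was not among the listed genes.

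**Figure D4:**
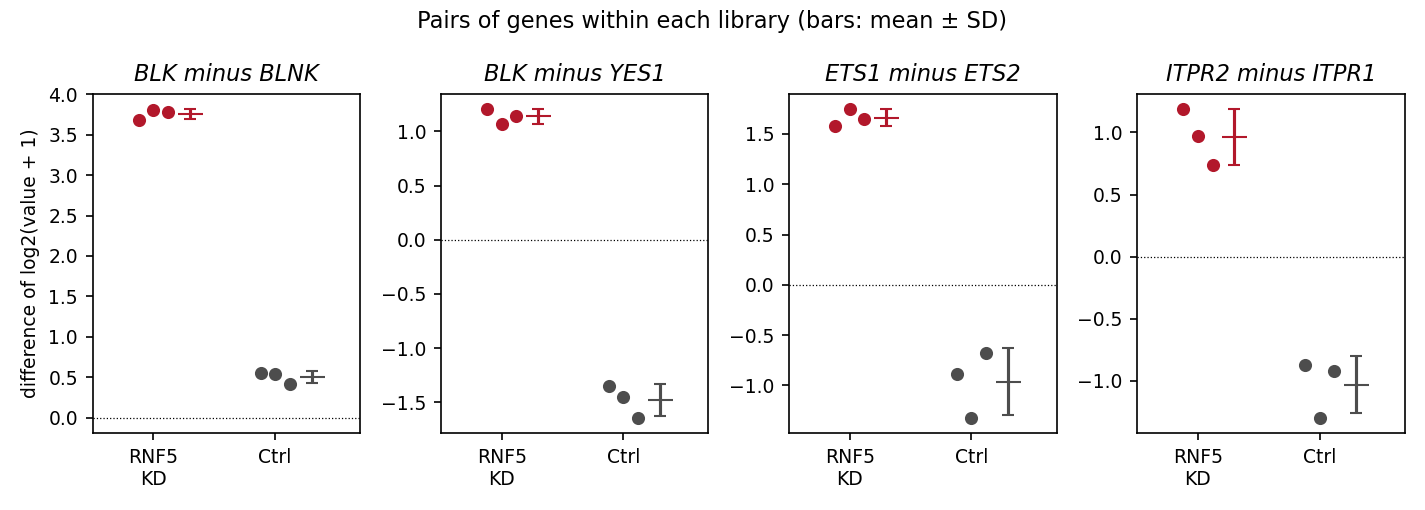
Difference of log2(value + 1) between 2 genes within each library (points) with mean ± SD of 3 libraries, RNF5 KD at left and Ctrl at right. All 4 differences are higher in every RNF5 KD library than in every Ctrl library. The place of 0 has no meaning on this scale, which does not compare levels between genes.

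Related genes that moved apart were also compared within each library, with the pairs chosen after their values were seen and no test made. ETS1 minus ETS2, as a difference of log2(value + 1), averaged 1.66 ± 0.085 in RNF5 KD and -0.96 ± 0.33 in Ctrl. BLK minus YES1 averaged 1.14 ± 0.069 in RNF5 KD and -1.48 ± 0.15 in Ctrl. ITPR2 minus ITPR1 averaged 0.97 ± 0.22 in RNF5 KD and -1.03 ± 0.23 in Ctrl. The sign of such a difference compares levels between genes, which the unnamed scale does not allow, so only the change between groups is read. The mean differences were higher in RNF5 KD by 2.62 for ETS1 minus ETS2, 2.62 for BLK minus YES1 and 2.0 for ITPR2 minus ITPR1. Pairs of genes that both rose were also compared. Their differences had to change less, because their rises were known to be of similar size. ETS1 minus BLK was 0.76 ± 0.14 in RNF5 KD and 0.56 ± 0.055 in Ctrl, still higher in every RNF5 KD library than in every Ctrl library. ETS1 minus CIITA was 0.57 ± 0.10 in RNF5 KD and 0.30 ± 0.23 in Ctrl, and there the groups overlapped.

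For each of the 5 genes, the closest profiles were sought among named genes with a mean of at least 5, as the distance between log2(value + 1) values centred on each gene's mean over the 6 libraries. For BLK these were SLC25A45, a gene of the mitochondrial carrier family (distance 0.148), and the non-coding RNA LINC02352 (0.151). For ETS1 they were the zinc finger gene ZNF589 (0.194) and the non-coding RNA WAKMAR2 (0.226), and for CIITA they were PKIA, an inhibitor of protein kinase A (0.189), and the pseudogene PTPRVP (0.241). For BLNK they were FAM72C (0.215), whose reads are shared with near-identical copies, and the immunophilin FKBP4 (0.253). For CD72 they were SELENOS (0.196), a selenoprotein of the endoplasmic reticulum membrane, and TVP23B (0.220). Distances are in log2 units over 6 libraries and are a description. SELENOS fell by 0.83 with means of 182 ± 5.20 in RNF5 KD and 325 ± 16.0 in Ctrl, and ZNF589 rose by 1.74 with means of 15.3 ± 0.568 in RNF5 KD and 3.91 ± 0.870 in Ctrl. A gene could be in the table only if the authors had called it changed.

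Markers of other cells were nearly absent from the table. The table holds only genes selected as changed, so a marker that was present but unchanged would also be missing. Absence thus says nothing of a marker's level or of other cells. None of 13 T and NK cell markers was listed. Of 10 myeloid markers CD33 was listed, at 0.61 to 1.10 in RNF5 KD and 0.07 to 0.55 in Ctrl. Of 13 stromal and epithelial markers COL1A1 and CLDN4 were listed, with a summed level of 1.36 to 1.92 in RNF5 KD and 2.57 to 3.76 in Ctrl. CLDN4 fell by 0.63 (limma adjusted p = 0.00675), and CD33 and COL1A1 were too low to test. The part of these markers in the changes of the 5 genes was not tested.

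**Figure D5:**
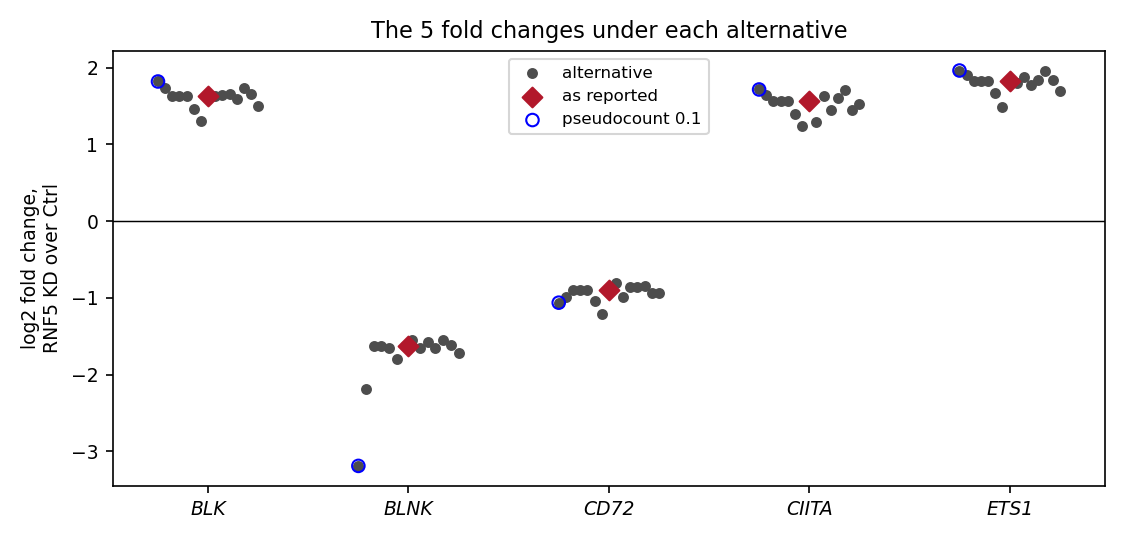
Log2 fold changes of the 5 genes (RNF5 KD over Ctrl) as reported (red diamonds) and under each alternative setting (grey points, with the pseudocount of 0.1 ringed in blue). No gene crosses 0, and the widest spread is that of BLNK, from -3.19 to -1.55.

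Under 15 alternatives (14 for BLNK, which was too low for the stricter filter), all 5 genes kept their direction and an adjusted p under 0.05. The log2 fold change ranged from 1.31 to 1.82 for BLK, from 1.23 to 1.72 for CIITA, from 1.49 to 1.96 for ETS1 and from -1.21 to -0.81 for CD72. The highest limma adjusted p among these alternatives was 0.00672, for CD72 without RNF5 KD library 3, and all others of the 5 genes were at or below 0.000551.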

How the data were processed

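RNA of 3 RNF5 KD and 3 Ctrl libraries was sequenced. The table deposited by the authors gave, per the file headers, a normalized signal per library (unit and steps of its making not given in the sources used here), group means, the fold ratio, its log2 value, a raw p-value and an adjusted one. Bowtie 0.12.2 and hg19 are named, per the submitters' processing notes, without a step. Values had 2 decimals with no common step, so reads could not be recovered and depth is unknown.

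Symbols picked the 5 genes. limma 3.58.1 (R 4.3.3) with a mean-variance trend was fitted on log2(value + 1) over the 1290 genes that reached a value of 1 in at least 3 libraries, group as the single term, and tested on simulated data. Intervals are at the 95% level. Exon lengths and overlaps came from GENCODE 29, which matched 91.7% of identifiers. The genes, lists and alternatives were chosen with earlier results of these data known. Genes named were the 5, RNF5, all list genes in the table and the 2 closest profiles of each; any other was chosen after its values were seen. Results of a few list genes are not reported here.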

Additional observations from a re-analysis of the deposited data

How the results depend on the processing

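The direction and the call of all 5 genes held under every alternative run. Genes called lower numbered 880 without a filter, against 542, and with a minimum of 5 the counts were 363 higher and 291 lower, because fewer genes were tested. The gap between BLK and BLNK, 3.25 as reported, was 5.01 with a pseudocount of 0.1 and 3.91 with 0.5, 3.12 with RNF5 KD scaled by the offset from the authors' fold changes and 3.10 with equal library medians. Leaving out 1 library gave 3.21 to 3.29 for that gap, and 1.50 to 1.73 for BLK, -1.71 to -1.55 for BLNK, -0.99 to -0.84 for CD72, 1.45 to 1.71 for CIITA and 1.69 to 1.96 for ETS1, with 709 to 719 genes higher and 518 to 553 lower. Over genes shared with the reported fit, the offset scaling and equal library medians shifted the log2 fold change by a median of -0.14 and -0.29. The median over all genes tested was 0.617 and 0.488 under them, against 0.726 as reported. Under both scalings BLK, CIITA and ETS1 stayed above 0 and BLNK and CD72 below. Libraries with the same replicate number had correlations of deviations of -0.165, -0.071 and -0.082. No label states a pairing, and with 3 libraries per group these values cannot exclude one. The replicate block gave 721 genes higher and 551 lower and the same log2 fold changes for the 5 genes, with BLK at 1.63 and CD72 at -0.90 (limma adjusted p = 0.00106). Depth is unknown, which limits statements on BLNK, near 0 in RNF5 KD.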

Other observations

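A search of gene descriptions for immunoglobulin, histocompatibility, B cell, SH2 and tyrosine kinase terms, among others, was made after the values were seen, and the genes below were picked from it by hand. VPREB3, related to the surrogate light chain of B cell precursors, had 0.54, 0.19 and 0.80 in RNF5 KD libraries, against 6.66, 5.47 and 5.77 in Ctrl libraries, and fell by 2.22 on the log2(value + 1) scale (limma adjusted p = 4.08e-06). It reached a value of 1 in Ctrl libraries alone and so had to differ once tested. PTK2B, a cytosolic tyrosine kinase activated by calcium, had 362.0, 381.6 and 367.3 in RNF5 KD libraries, against 139.0, 132.6 and 83.98 in Ctrl libraries, and rose by 1.67 (limma adjusted p = 2.10e-05). SH2B2, an adaptor with an SH2 domain, had 41.69, 33.73 and 43.53 in RNF5 KD libraries, against 13.33, 16.51 and 10.11 in Ctrl libraries, and rose by 1.52 (limma adjusted p = 5.48e-05). IGLC3, a constant region of the immunoglobulin lambda light chain, had 8.21, 8.85 and 3.36 in RNF5 KD libraries, against 0.05, 0.36 and 1.06 in Ctrl libraries, and rose by 2.36 (limma adjusted p = 5.39e-05). Its level is uncertain, because reads are shared with near-identical lambda constant genes. IGLC3 passed the filter through its RNF5 KD libraries, since in Ctrl only library 3 reached a value of 1. It thus entered through the group where it is high, and its adjusted p is no support for a change. HLA-G, of MHC class I, averaged 0.587 in RNF5 KD and 1.47 in Ctrl and fell by 0.63 (limma adjusted p = 0.00139). Like VPREB3, HLA-G reached a value of 1 in Ctrl libraries alone. TXK, a kinase of the TEC family, was too low to test, with means of 0.263 in RNF5 KD and 0.763 in Ctrl.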
